A study of Bos taurus with 6 samples.

Results

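Interstitial collagens form the fibrils and filaments of connective tissue around cells, and lysyl oxidases crosslink them. The genes described here are 10 chosen by name for that role, of 23704 genes measured: 5 fibrillar chains (COL1A1, COL1A2, COL3A1, COL5A1 and COL5A2), 3 collagen VI chains (COL6A1, COL6A2 and COL6A3) and the lysyl oxidases LOX and LOXL4. Transcripts of 8 of the 10 could be matched to a gene name. COL5A2 and COL6A3 are named only, with no value. The rule is the gene's name and role and uses no measured value, but the list was drawn up with earlier results of these data known.

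RNA was sequenced from pools of bovine primordial follicles (PMF), each an oocyte enclosed in flattened pregranulosa cells. The T0 group holds 3 libraries of follicles taken without the 16 h culture and the T16 group 3 libraries of follicles cultured for 16 h. Libraries are named here by group and replicate. By the study's methods, PMF were isolated mechanically, with no enzyme, from the ovarian cortex of young Holstein Friesian dairy cows collected at an abattoir, sieved and picked by morphology, and rested for an hour in medium with insulin and FSH before collection. The sample labels name no agent, allele or genotype that separates the groups, and the medium of the 16 h culture is not given in the sources used here. Oocyte, pregranulosa cells and whatever adhered to them were sequenced together, so that fewer cells of a type and less RNA per cell cannot be told apart in these values. The study pooled follicles of many animals and calls the pools biological replicates. Its methods do not describe the 16 h culture, and that isolation, rest and pooling were the same for the T16 follicles is assumed here. Which animals gave which pool is not given in the sources used here, and p-values measure the spread between these pools.

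As background, fibrillar procollagen chains fold into triple helices in the endoplasmic reticulum, are secreted, lose their end peptides and then assemble into fibrils. Collagen I, the most abundant fibrillar collagen of most tissues, holds COL1A1 and COL1A2 chains with COL1A1 in excess, collagen III is made of COL3A1 alone, and collagen V starts fibrils and limits their width. Collagen VI forms beaded filaments close to cells. Lysyl oxidases are copper enzymes that oxidise lysines of collagen and elastin, the step from which crosslinks form. In the ovarian cortex these proteins make up much of the matrix in which PMF lie.

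The libraries held 22174653 to 36703016 estimated counts. They differed in cell markers as well as in time. The summed level of 14 oocyte markers ran from 470 to 2728 TPM (a level corrected for transcript length and library size) at T0 and from 77.6 to 1896 TPM at T16, lowest in T16 replicate 2 and, among the T0 libraries, in replicate 1. GDF9, an oocyte growth factor, had 2.28 TPM in T0 replicate 1 and 1.34 TPM in T16 replicate 2, and 24.6 to 85.6 TPM elsewhere. The sum of 11 granulosa markers was 724 to 2841 TPM, much of it from GJA1, INHA and FST. Of these 11, 2 had every T16 library below every T0 library, FOXL2 and WNT6, and 1 above, FST (10.6% and 13.2% of all genes). FOXL2 had 37.3 to 141 TPM at T0 and 3.37 to 20.1 TPM at T16 (edgeR adjusted p = 0.280, DESeq2 adjusted p = 0.0505). WNT6 had 39.0 to 155 TPM at T0 and 0.0547 to 15.1 TPM at T16 (edgeR adjusted p = 0.306, DESeq2 adjusted p = 0.0250). FST had 24.4 to 90.0 TPM at T0 and 259 to 513 TPM at T16 (edgeR adjusted p = 0.140, DESeq2 adjusted p = 0.00226). Fold changes were above 0 in 4 of the 11 and below 0 in 7. Because 2 libraries were low in the oocyte and because T16 replicate 1 stood apart for the collagens below, values without these libraries are given where they turn a direction.

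None of the 8 genes differed between T0 and T16 beyond the spread of the libraries. The quasi-likelihood test of edgeR called 0 of 8 at an FDR below 0.05, with adjusted p-values of 0.685 to 0.996, where it called 6 of 14639 genes in all (0.041%; 0.0342% higher and 0.00683% lower). At an unadjusted p below 0.05 it also found 0 of 8, against 13.8% of all genes. DESeq2 called 0 of the 7 for which it gave an adjusted p (it gave none for LOXL4), against 7.22% of all genes (4.17% higher and 3.04% lower). In all 8 genes the T0 and T16 values overlapped, while 23.8% of all genes had every T16 library on one side of every T0 library (13.2% higher and 10.6% lower). The lowest values lay mostly in a single library. T16 replicate 1 had the lowest value of the 6 libraries in 7 of 8 genes, and shared the lowest, 0, with T16 replicate 3 in the other, LOX. Over all genes, T16 replicate 1 was lowest, ties left out, in 22.7%.

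**Figure D1:**
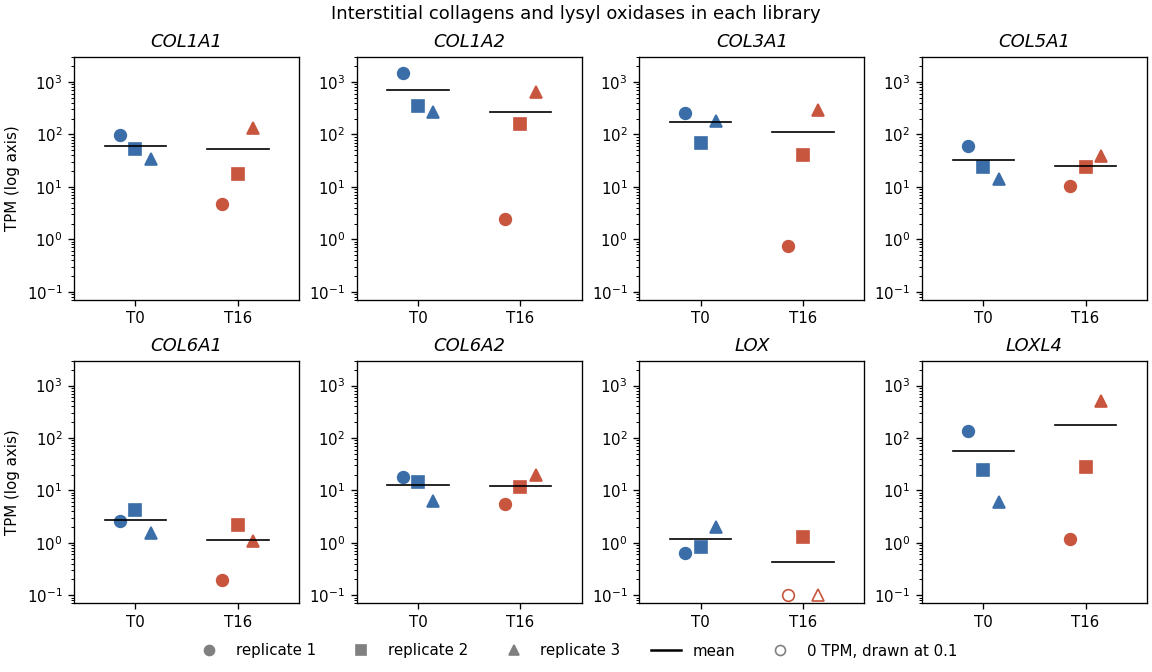
Level of each gene in TPM on a log axis at T0 and T16; points are single libraries, shaped by replicate, lines are means of 3 libraries, and open points are values of 0 drawn at 0.1. COL1A2 and COL3A1 reach 2.43 and 0.743 TPM in T16 replicate 1, while LOXL4 reaches 497 TPM in T16 replicate 3.

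COL1A2, the lesser chain of the collagen I helix, had the highest level of the 8 genes in 5 of the 6 libraries. It had 1488, 351 and 265 TPM in T0 replicates 1, 2 and 3, and 2.43, 160 and 634 TPM in T16 replicates 1, 2 and 3. T16 replicate 1 was far below every other library, the lowest T0 library being 109 times higher, and T16 replicate 3 lay within the T0 values. The means were 701 TPM (SD 683, n = 3) at T0 and 265 TPM (SD 329, n = 3) at T16, and the fitted log2 fold change of T16 against T0 was -1.24 (SE 1.54, edgeR adjusted p = 0.796). Its 95% interval ran from -4.87 to 2.38, and without T0 replicate 1 the fold change was 0.15.

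COL1A1, the major chain of collagen I, had 97.9, 52.6 and 34.0 TPM at T0 and 4.68, 17.7 and 132 TPM at T16, in the order of the replicates. Here both T16 replicates 1 and 2 were below the T0 range and T16 replicate 3 was above it. The means were 61.5 TPM (SD 32.9, n = 3) and 51.6 TPM (SD 70.3, n = 3). The log2 fold change fitted to the counts, here as for the other genes, was -0.03 (SE 1.15, 95% interval -2.73 to 2.67, edgeR adjusted p = 0.996). The fold change was 0.63, 0.47 and 0.41 without T0 replicate 1, T16 replicate 1 and T16 replicate 2, and -2.50 without T16 replicate 3.

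COL3A1, the chain of collagen III and a partner of collagen I in thin fibrils, had 262, 69.3 and 184 TPM at T0 and 0.743, 40.8 and 298 TPM at T16. The lowest T0 library was 93.3 times T16 replicate 1, where 66 counts stood behind the value, and T16 replicate 3 was the highest of the 6. The means were 172 TPM (SD 96.7, n = 3) and 113 TPM (SD 161, n = 3), and the fitted log2 fold change was -0.36 (SE 1.53, 95% interval -3.96 to 3.24, edgeR adjusted p = 0.951). It was 0.23 without T0 replicate 1, 0.15 without T16 replicate 1, 0.07 without T16 replicate 2 and -3.08 without T16 replicate 3.

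COL5A1, the main chain of collagen V, varied least of the fibrillar chains at T16. It had 60.4, 24.0 and 13.9 TPM at T0 and 10.3, 23.9 and 39.4 TPM at T16. Only T16 replicate 1 fell outside the T0 range, and by little, since the lowest T0 library was 1.34 times higher. The log2 fold change was -0.31 (SE 0.755, 95% interval -2.08 to 1.46, edgeR adjusted p = 0.906), with 0.65 without T0 replicate 1, 0.07 without T16 replicate 1 and -1.01 without T16 replicate 3. The gene had 2 transcripts in the files, each of 8391 bases, and the lesser held 22.2% to 24.9% of its estimated counts at T0, 0% in T16 replicate 1 and 15.6% and 12.0% in T16 replicates 2 and 3.

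Of collagen VI, only COL6A1 and COL6A2 had values, since COL6A3 was not matched. Their mean levels were below those of the measured fibrillar chains and differed from each other. COL6A2 had 17.9, 14.4 and 6.16 TPM at T0 and 5.39, 11.5 and 19.8 TPM at T16. These ranges nearly coincided, with means of 12.8 TPM (SD 6.02, n = 3) and 12.2 TPM (SD 7.20, n = 3). The log2 fold change was 0.08 (SE 0.686, 95% interval -1.53 to 1.68, edgeR adjusted p = 0.980), and it was -0.30 without T0 replicate 3, -0.63 without T16 replicate 3 and -0.08 with scaling by library size only.

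COL6A1, the other short chain, had 2.58, 4.19 and 1.55 TPM at T0 and 0.197, 2.16 and 1.06 TPM at T16. T16 replicates 1 and 3 were below all T0 libraries, and T16 replicate 2 was among them. The value in T16 replicate 1 rests on 13 counts. The log2 fold change was -1.16 (SE 0.983, 95% interval -3.47 to 1.14, edgeR adjusted p = 0.685), the lowest adjusted p of the 8 genes, and it was below 0 under all 13 other settings tried, from -1.86 to -0.72.

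LOX, the founding lysyl oxidase, was at the edge of detection. It had 0.638, 0.836 and 2.01 TPM at T0, from 15.4, 27.9 and 54.5 estimated counts. At T16 it had 0 TPM in replicate 1, 1.31 TPM from 34.0 estimated counts in replicate 2 and 0 TPM in replicate 3. A count of 0 allows up to 3 counts, which is 0.116 CPM (counts scaled to library size) in T16 replicate 1 and 0.0906 CPM in T16 replicate 3, for counting error only. T16 replicate 2 lay inside the T0 range, so the groups overlapped, and the fitted log2 fold change was -1.29 (SE 1.94, 95% interval -5.84 to 3.26, edgeR adjusted p = 0.842).

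LOXL4, a lysyl oxidase of the group with scavenger receptor domains, was the lysyl oxidase with the highest mean level and the most variable gene of the 8 at T0. It had 137, 24.0 and 5.94 TPM at T0 and 1.19, 27.4 and 497 TPM at T16. T16 replicate 3 was the highest of the 6 libraries at 3.62 times T0 replicate 1, T16 replicate 1 was the lowest, and T16 replicate 2 was close to T0 replicate 2. The log2 fold change of 1.82 (SE 1.89, 95% interval -2.62 to 6.26, edgeR adjusted p = 0.756) rests on T16 replicate 3, without which it was -2.08. Without T0 replicate 1 it was 3.94. The difference of the mean log2 CPM, which weights the libraries equally, was 0.03. LOXL4 had 2 transcripts in the files, and the second held 34.3%, 39.0% and 63.6% of its estimated counts at T0 and 6.71%, 30.9% and 31.0% at T16.

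**Figure D2:**
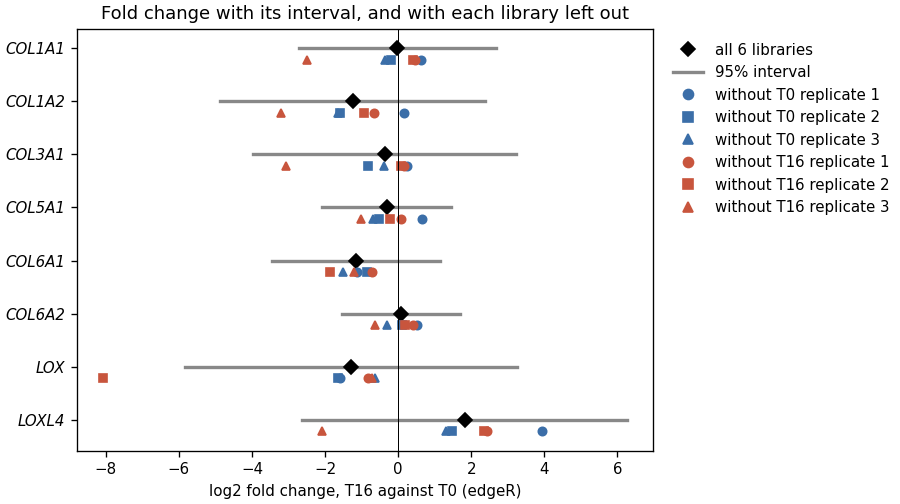
Fitted log2 fold change of T16 against T0 by edgeR for the 8 genes (diamonds) with its 95% interval (bars), and the same with each library left out (coloured points). Every interval spans 0, and the points of LOXL4 span -2.08 (T16 replicate 3 left out) to 3.94 (T0 replicate 1 left out); the LOX point at -8.08, without T16 replicate 2, compares with 2 libraries at 0 and depends on the prior count.

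The direction of the fold changes was 2 above and 6 below 0, with a median of -0.34, beside a median of -0.08 over all tested genes, of which 46.6% were above and 53.4% below 0. The median of the 8 was -1.65 when T16 replicate 3 was left out and 0.38 when T0 replicate 1 was. All 8 genes passed the filter of at least 10 counts in at least 3 libraries, LOX with 3 T0 libraries and 1 T16 library.

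The genes shared a low T16 replicate 1, while their highest libraries differed. With each gene's log2 CPM centred on its own mean, the mean of the 8 genes was 1.69, 0.44 and -0.05 in T0 replicates 1, 2 and 3, and -3.49, 0.07 and 1.33 in T16 replicates 1, 2 and 3. T16 replicate 3 was the highest library in 4 of the 8 (COL1A1, COL3A1, COL6A2 and LOXL4) against 15.9% of all genes, and T0 replicate 1 in COL1A2 and COL5A1. COL6A1 was highest in T0 replicate 2, and LOX in T0 replicate 3. The Pearson r of a gene to this mean over the 6 libraries, to which each gene itself contributes, was 0.996 for COL1A2 and 0.364 for LOX, with the other 6 genes between 0.815 and 0.963. T16 replicate 1, at -3.49, lay far from the other libraries and weighs heavily in these r. They were not computed without it.

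**Figure D3:**
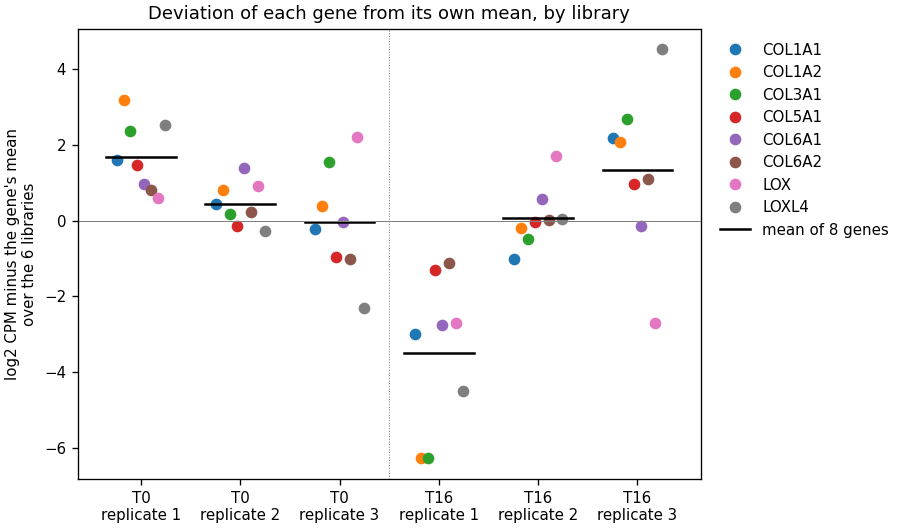
Deviation of each gene's log2 CPM from its own mean over the 6 libraries; points are genes and lines the mean of the 8 genes in that library. The mean is -3.49 in T16 replicate 1, where COL1A2 and COL3A1 lie lowest, and 1.33 in T16 replicate 3.

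The spread within a group was larger at T16. The SD of log2 CPM over the 3 libraries had a median over the 8 genes of 1.02 at T0 and 2.57 at T16, beside 0.587 and 0.737 over all tested genes. It was larger at T16 in 7 of the 8 (87.5%) and in 64.2% of all genes, and COL5A1 was the exception. At T16 the highest library was 401 times the lowest for COL3A1, 419 times for LOXL4, 261 times for COL1A2 and 28.3 times for COL1A1. At T0 it was 2.70 to 5.61 times for 7 of the 8 genes and 23.1 times for LOXL4. Few genes varied as much: 0.792% of tested genes had a T16 SD at least that of COL3A1, 0.827% for LOXL4 and 1.10% for COL1A2. A large T16 spread was not particular to the 8 genes. The 14 oocyte markers had a median T16 SD of 2.94, and the SD was larger at T16 in 92.9% of them. The median T16 SD was 2.15 for 17 tested matrix proteins that organise fibrils or assist crosslinking, and 1.06 for 20 tested hydroxylases, chaperones and export factors.

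**Figure D4:**
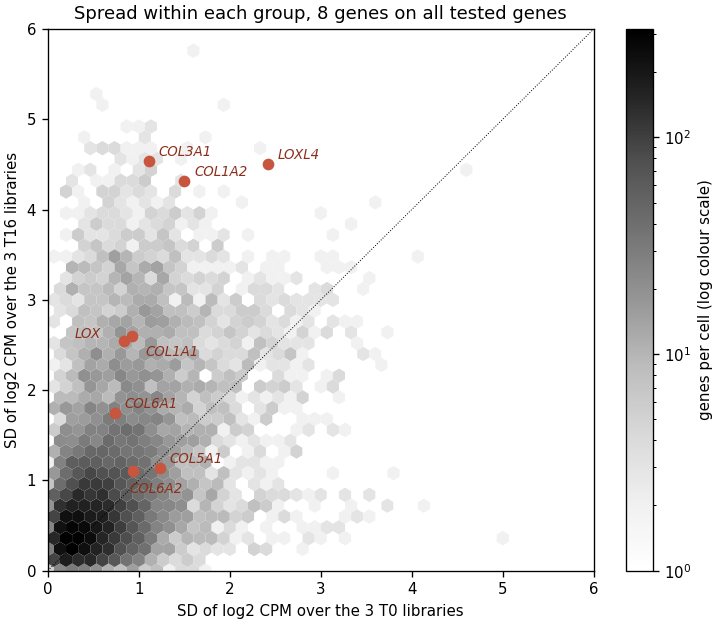
SD of log2 CPM over the 3 T0 libraries (x axis) and the 3 T16 libraries (y axis); grey cells count all tested genes on a log colour scale, red points are the 8 genes, and the dotted line marks equal SD. COL3A1, COL1A2 and LOXL4 lie near the top, and only COL5A1 lies below the line.

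In order of mean TPM, T0 read COL1A2, COL3A1, COL1A1, LOXL4, COL5A1, COL6A2, COL6A1 and LOX. Among neighbours in that order, only COL1A2 with COL3A1 and COL6A2 with COL6A1 had ranges that did not overlap. At T16 LOXL4 moved to second place by its mean of 175 TPM (SD 279, n = 3), and only COL6A2 and COL6A1 were apart. The summed level of the 8 genes was 2066, 540 and 513 TPM at T0 and 25.0, 285 and 1622 TPM at T16. The makeup changed in the library where the sum was low: in T16 replicate 1, COL5A1 came first with 41.4% of the sum and COL6A2 second with 21.6%, and COL1A2 held 9.72%, whereas COL1A2 held 39.1% to 72.0% in the other libraries. In T16 replicate 3, LOXL4 held 30.7%.

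Ratios of genes within a library need no scaling between libraries. For 5 ratios an exact two-sided permutation test was run, which cannot give a p below 0.1 with 3 libraries against 3, and the Benjamini-Hochberg values over the 5 were 0.75 to 0.8. COL1A2 was 15.2, 6.67 and 7.81 times COL1A1 at T0 and 0.518, 9.02 and 4.79 times at T16. Only in T16 replicate 1 was COL1A2 below COL1A1. The mean log2 ratio was lower at T16 by a difference of -1.72 (exact p = 0.3, adjusted 0.75), and of -0.49 without T16 replicate 1. COL1A2 was 5.69, 5.06 and 1.44 times COL3A1 at T0 and 3.26, 3.92 and 2.13 times at T16, a log2 difference of -0.20 (exact p = 0.8) that was 0.15 without T0 replicate 1, 0.07 without T0 replicate 2 and 0.05 without T16 replicate 3.

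The ratio of COL6A1 to COL6A2 was 0.144, 0.290 and 0.252 at T0 and 0.0365, 0.187 and 0.0537 at T16. It was lowest in T16 replicates 1 and 3, while T16 replicate 2 lay within the T0 range, and the log2 difference was -1.62 (exact p = 0.2, adjusted 0.75). LOX was at most 0.338 times LOXL4, in T0 replicate 3. The other ratios were 0.00464 and 0.0349 in T0 replicates 1 and 2 and 0, 0.0478 and 0 at T16 (exact p = 0.5 on the untransformed ratio).

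Collagen IV, the network collagen of basement membranes, served as the comparison. The sum of COL1A1, COL1A2 and COL3A1 was 8.21, 4.02 and 7.58 times the sum of COL4A1 and COL4A2 at T0 and 0.216, 3.55 and 15.2 times at T16. T16 replicate 1 was the lowest and T16 replicate 3 the highest, and the log2 difference was -1.47 (exact p = 0.6), or 0.22 without T16 replicate 1. COL4A1 had 194, 92.2 and 48.3 TPM at T0 and 31.6, 56.2 and 57.5 TPM at T16. The SD of its log2 CPM was 1.16 at T0 and 0.622 at T16, and only at T16 was it below those of COL1A1, COL1A2 and COL3A1. Over the 6 collagen IV chains the median SD was 0.650 at T0 and 2.13 at T16. T16 replicate 1 was the lowest library, ties left out, in 4 of the 6, beside 22.7% of all genes. Of the 6 collagen IV chains, all had fold changes below 0, edgeR called 0, with 2 below an unadjusted p of 0.05, and DESeq2 called 1 lower, COL4A3. Over all genes, 53.4% had fold changes below 0, 5.14% were lower at the unadjusted p and DESeq2 called 3.04% lower. COL4A3 had 25.3, 68.3 and 65.1 TPM at T0 and 15.01, 4.27 and 5.85 TPM at T16 (edgeR adjusted p = 0.122, DESeq2 adjusted p = 0.000995).

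**Figure D5:**
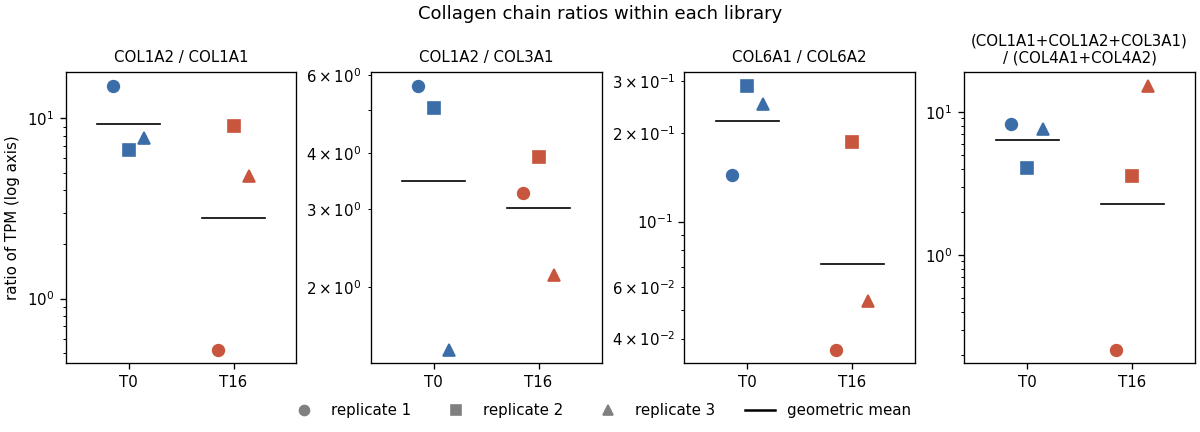
Ratios of TPM within each library, on log axes that differ between panels; points are libraries shaped by replicate and lines are geometric means of 3 libraries. T16 replicate 1 has the lowest ratio of COL1A2 to COL1A1 (0.518), of COL6A1 to COL6A2 (0.0365) and of collagens I and III to collagen IV (0.216).

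Of the other lysyl oxidases, edgeR and DESeq2 each called 0 of 3, with 0 at an unadjusted p below 0.05. LOXL2, close kin of LOXL4, had 20.4, 5.16 and 2.32 TPM at T0 and 0.924, 12.0 and 48.7 TPM at T16. Its lowest and highest libraries were those of LOXL4, T16 replicates 1 and 3. LOXL3 had 49.3, 25.3 and 12.5 TPM at T0 and 3.54, 19.9 and 8.77 TPM at T16 (log2 fold change -1.40, edgeR adjusted p = 0.501). Of the other interstitial and fibril-associated collagens, 9 were tested, and edgeR and DESeq2 each called 0, with 1 lower at an unadjusted p (5.14% of all genes). COL14A1, which sits on fibril surfaces, had 4.61, 3.16 and 3.27 TPM at T0 and 4.38, 1.14 and 1.04 TPM at T16, so T16 replicate 1 was not low in it. COL11A1, a fibril-initiating chain best known from cartilage, had 10.9 TPM in T16 replicate 2, 0.943 to 2.96 TPM at T0, 0 TPM in T16 replicate 1 and 0.0116 TPM in T16 replicate 3.

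Of 20 tested hydroxylases, chaperones and export factors, edgeR and DESeq2 each called 0, with 0 at an unadjusted p below 0.05. SERPINH1, the collagen chaperone also called HSP47, had 873, 204 and 166 TPM at T0 and 243, 247 and 325 TPM at T16. T16 replicate 1 was the lowest library in 11 of the 20 (55%), beside 22.7% of all genes, and T0 replicate 1 the highest in 15. CRTAP, a partner of prolyl 3-hydroxylase, had 4.08 TPM in T16 replicate 1 and 25.9 to 81.2 TPM elsewhere. SERPINH1 was among the others, with T16 replicate 1 inside its T0 range. PPIB, a prolyl isomerase of the same compartment, had 1058, 815 and 703 TPM at T0 and 1272, 1143 and 1694 TPM at T16 (log2 fold change 0.79, edgeR adjusted p = 0.463).

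Of 6 tested proteinases and enhancers that mature procollagen, edgeR called 0, with 1 lower at an unadjusted p, and DESeq2 called 1 lower, ADAMTS3. Over all genes, 5.14% were lower at the unadjusted p, DESeq2 called 3.04% lower, and 10.6% had every T16 library below every T0 library. ADAMTS3, which removes amino-terminal propeptides, had 15.4, 26.8 and 17.9 TPM at T0 and 2.90, 9.24 and 3.73 TPM at T16, with no overlap. Its log2 fold change was -1.83 (SE 0.496, edgeR adjusted p = 0.160, DESeq2 adjusted p = 0.00986).

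Of 17 tested matrix proteins that organise fibrils or assist crosslinking, edgeR called 0 at the FDR, with 1 higher and 7 lower at an unadjusted p below 0.05, where 8.61% and 5.14% of all genes stood. DESeq2 called 1 higher and 6 lower (4.17% and 3.04% of all genes). In 10 of the 17, every T16 library was below every T0 library (10.6% of all genes). FMOD, a proteoglycan that binds collagen fibrils and directs lysyl oxidase to them, had 273, 891 and 1009 TPM at T0 and 104, 58.7 and 75.3 TPM at T16. All T16 libraries were low, with a log2 fold change of -3.02 (SE 0.525, edgeR adjusted p = 0.0921, DESeq2 adjusted p = 2.15e-06). PRELP, a related leucine-rich repeat proteoglycan, had 45.2, 124 and 98.1 TPM at T0 and 6.07, 10.7 and 5.03 TPM at T16. Its log2 fold change was -3.48 (SE 0.455, edgeR adjusted p = 0.0838, DESeq2 adjusted p = 2.41e-10). EFEMP2, or fibulin-4, which brings LOX to its substrates, had 37.3, 43.6 and 41.2 TPM at T0 and 3.39, 5.29 and 11.6 TPM at T16. THBS1, a matricellular protein, went the other way, with 18.4, 10.7 and 9.56 TPM at T0 and 51.7, 38.7 and 44.6 TPM at T16 (log2 fold change 1.88, edgeR adjusted p = 0.123, DESeq2 adjusted p = 0.00226).

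Of 10 tested collagen receptors, edgeR and DESeq2 each called 0, with 0 at an unadjusted p below 0.05. ITGB1, the shared chain of the collagen-binding integrins, had 80.9, 65.4 and 69.1 TPM at T0 and 94.1, 70.5 and 96.9 TPM at T16. DDR1, a receptor kinase for collagen, had 51.5, 49.0 and 19.4 TPM at T0 and 7.21, 46.9 and 17.9 TPM at T16.

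Of 9 tested collagen-degrading proteases and their inhibitors, edgeR called 1 higher, MMP1, and none lower (0.0342% and 0.00683% of all genes). MMP1, interstitial collagenase, cleaves the intact helix of collagens I and III. It had 0, 0.117 and 0 TPM at T0 and 197, 133 and 45.8 TPM at T16. All 3 T16 libraries held it and the T0 libraries were at or near 0 (edgeR adjusted p = 0.0357, DESeq2 adjusted p = 6.39e-27). The edgeR adjusted p was 0.066 without T0 replicate 1, 0.208 without T0 replicate 2 and 0.136 without T0 replicate 3. Without a T16 library the gene no longer passed the filter on low counts. MMP1 was highest in T16 replicate 1, the library in which the collagen I and III chains were lowest. That library was the lowest, ties left out, in 22.7% of all genes, and the share of genes highest in it was not counted. A link between MMP1 and the collagen levels was not tested. MMP2, of the same list, had every T16 library below every T0 library. It had 87.4, 153 and 77.5 TPM at T0 and 0, 19.1 and 32.9 TPM at T16 (edgeR adjusted p = 0.578, DESeq2 adjusted p = 0.615).

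Of 15 tested genes of TGF-beta signalling, a main inducer of collagen transcription, edgeR called 0, with 4 higher and 1 lower at an unadjusted p below 0.05, and DESeq2 called 1 higher and 1 lower. Over all genes the shares were 8.61% higher and 5.14% lower at the unadjusted p, and 4.17% and 3.04% by DESeq2. TGFB3, a ligand, had 9.52, 20.9 and 12.1 TPM at T0 and 0.677, 2.64 and 1.42 TPM at T16 (edgeR adjusted p = 0.132, DESeq2 adjusted p = 0.00039). SMAD3, a transducer of the signal, had 34.9, 49.4 and 38.5 TPM at T0 and 126, 72.9 and 116 TPM at T16 (edgeR adjusted p = 0.133, DESeq2 adjusted p = 0.0143). Both were named because DESeq2 called them. Neither gene's groups overlapped, which that choice made likely. Of the 15, 4 had every T16 library above every T0 library and 1 below (13.2% and 10.6% of all genes).

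Some markers of other ovarian cells were also lowest in T16 replicate 1, and others were not. The summed level of 12 stromal fibroblast markers was 638 to 824 TPM at T0 and 281, 549 and 631 TPM in T16 replicates 1, 2 and 3. LUM had 0.0718 TPM in T16 replicate 1 against 96.4 to 390 TPM elsewhere, and DPT was at 0 in T0 replicate 3 and in all T16 libraries. DCN and PDGFRA, also markers of fibroblasts, had 152 and 112 TPM in T16 replicate 1, against 121 to 489 TPM and 21.4 to 160 TPM elsewhere. The sum of 11 smooth muscle and pericyte markers was 130 to 459 TPM at T0 and 51.1, 129 and 76.6 TPM at T16, with ACTA2 and MYH11 at 0 in T16 replicate 1, where MCAM had 7.30 TPM, its highest value, and MYLK 19.7 TPM against 10.6 to 22.5 TPM elsewhere. The sum of 8 theca and steroidogenic markers was 635 to 3665 TPM at T0 and 60.0, 1858 and 595 TPM at T16, and CYP11A1 had 2.74 TPM in T16 replicate 1 against 298 to 1339 TPM elsewhere. LHCGR, of the same list, had 3.19 TPM in T16 replicate 1, its highest value, against 0.965 to 3.15 TPM elsewhere. Of the tested markers, T16 replicate 1 was lowest in 4 of 11 for stroma, 5 of 9 for smooth muscle, 5 of 7 for theca, 2 of 8 for endothelium, 4 of 11 for granulosa, 1 of 7 for the surface epithelium, 0 of 4 for immune cells and 0 of 14 for the oocyte, where 22.7% of all genes were lowest there. The part of these cells in the levels of the collagens and lysyl oxidases was not tested.

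The 5 genes whose log2 CPM was most like the mean of the 8, by Pearson r over 6 libraries among the 10244 genes averaging 3 or more on the log2 CPM scale, were HTRA1 (0.999), MPP1 (0.998), IDH3G (0.998), CLMN (0.996) and BLOC1S1 (0.995). HTRA1, a secreted serine protease, had 773, 273 and 182 TPM at T0 and 4.07, 174 and 447 TPM at T16. IDH3G, a subunit of a mitochondrial isocitrate dehydrogenase, had 155, 122 and 102 TPM at T0 and 32.5, 98.4 and 133 TPM at T16. Both were lowest in T16 replicate 1 and highest in T0 replicate 1.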

How the data were processed

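RNA of 3 T0 and 3 T16 libraries of bovine PMF was analysed. Trimming by Trim Galore and fastp and quantification by Salmon against ARS-UCD1.3 transcripts were done by the authors, whose deposited files hold estimated counts and TPM of each RefSeq transcript. Gene names came from a RefSeq table built on ARS-UCD2.0, and its coordinates were not used. Of 76123 transcripts 50205 matched, and the rest, 9.74% to 10.9% of the counts, were left out. The estimated counts of a gene's transcripts were added and rounded, and TPM were added.

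The T16 and T0 libraries were compared in R 4.3.3 with the quasi-likelihood F test of edgeR 4.0.16 and TMM scaling, on the 14639 genes reaching 10 counts in 3 or more libraries, with Benjamini-Hochberg adjustment over all of them. DESeq2 1.42.0 was the alternative tool. Ratios of TPM were compared by exact permutation on log2 values. The ratio of LOX to LOXL4 was compared untransformed, a change made after LOX was seen to be 0 in 2 libraries. The other alternatives were scaling by DESeq2 size factors or library size only, other filters, transcript length offsets, a replicate block, other forms of the ratios and each library left out.

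The genes were listed by name and role, and they and the other lists were chosen with earlier results of these data known. All 10 genes are named. From each other list except the markers, at most 4 genes past an FDR of 0.05 in edgeR or DESeq2 are named, by the smallest edgeR p, or else the 2 with the highest mean TPM. The 5 genes most like the mean of the described genes are also named. COL4A1, CRTAP, MMP2, MMP9 and the marker genes were named after their values were seen.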

Additional observations from a re-analysis of the deposited data

How the results depend on the processing

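The number of described genes called was 0 under all 13 alternatives, with a range of the median log2 fold change from -1.65 to 0.38. Over all genes, edgeR called 5 higher and 1 lower at T16. DESeq2 called 594 higher and 433 lower, a filter of at least 10 counts in all 6 libraries gave 13 and 6 (LOX was not in that fit), and no filter gave 4 lower. With a library left out, 0 to 2 were called higher and 0 to 1 lower. Same-numbered T0 and T16 libraries did not deviate together (r = -0.445, -0.121 and -0.00469 across genes), so the numbers were not taken as pairs; a fit with the replicate number as a block called 0 higher and 0 lower, with 899 and 486 at an unadjusted p below 0.05, and MMP1 had an adjusted p of 0.331.

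The fold change of COL6A2, 0.08, was -0.077 with library size only, -0.0083 with the stricter filter and -0.042 with the replicate block. With each library left out in turn, log2 fold changes ran from -2.50 to 0.63 for COL1A1, -3.20 to 0.15 for COL1A2, -3.08 to 0.23 for COL3A1, -1.01 to 0.65 for COL5A1, -0.63 to 0.52 for COL6A2 and -2.08 to 3.94 for LOXL4. The log2 difference of the ratio of COL1A2 to COL3A1 ran from -0.83 to 0.15, and that of collagens I and III to collagen IV from -2.85 to 0.22. The fold changes of COL6A1 and LOX kept their direction, the latter at -8.08 without T16 replicate 2, a value that depends on the prior count. The causes were not tested beyond the library or gene set left out. Low counts limit LOX and, in T16 replicate 1, COL6A1, and 3 libraries a group limit the ratio tests.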
